A study of Mus musculus with 2 samples.

Results

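Gm28661, Gm10925, Gm28437 and Gm28439 are 4 pseudogenes on mouse chromosome 1 that copy mitochondrial DNA. They were chosen by name from 55536 annotated genes, as unprocessed pseudogenes lying together on mm10 chromosome 1 whose values in 2 quantifications of the same libraries were known. Their levels and the differences between the quantifications are therefore given as a description, with no test. The series holds 2 libraries of total RNA from whole adrenal gland, 1 from each of 2 female mice of strain B6CASTF1/J, an F1 cross of C57BL/6J and CAST/EiJ, aged 18 to 20 months. Both libraries belong to 1 group, for which the labels name no treatment. They were made from 300 ng of RNA with ERCC spike-ins (synthetic RNAs of known amount), and are called animal 1 and animal 2 after their replicate numbers. The labels give both the same donor identifier, and 1 field of animal 2 repeats the name of animal 1, so the spread between the libraries may be partly technical. The annotation is that of the C57BL/6J reference, and whether the CAST/EiJ chromosome carries the same stretch was not analysed here.

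A nuclear mitochondrial DNA segment, or NUMT, is a piece of the mitochondrial genome that was inserted into a nuclear chromosome. Such copies have no mitochondrial promoter, and they are read with the standard genetic code if they are read at all, so TGA, which means tryptophan in the mitochondrion, is a stop in the nucleus. The mitochondrial genome itself is transcribed as long RNAs that are cut into single messages, which are abundant in tissues rich in mitochondria such as the adrenal cortex, where part of steroid synthesis takes place inside the organelle. A read from a region where a copy and its source are the same can be assigned to either.

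The members and 3 further pseudogenes, Gm29216, Gm28438 and Gm10222, lie on the minus strand of mm10 chromosome 1 in the order of the mitochondrial genes. Each member has 1 transcript with 1 exon. Gm28661 (ENSMUSG00000102070.1, chr1:24614885-24615565) copies mt-Co2, which encodes a subunit of cytochrome c oxidase, at chrM:7013-7696. Gm10925 (ENSMUSG00000100862.1, chr1:24613974-24614651) copies mt-Atp6, which encodes a membrane subunit of ATP synthase, at chrM:7927-8607. Gm28661 and Gm10925 stand at the same distance from each other as their sources do. Gm28437 (ENSMUSG00000101111.1, chr1:24613189-24613971) copies mt-Co3, another cytochrome c oxidase subunit, at chrM:8607-9390. Gm28439 (ENSMUSG00000100131.1, chr1:24611535-24612410) copies the first part of mt-Nd4, a subunit of complex I, at chrM:10167-11544. The sum of the chromosome 1 and mitochondrial positions of matching bases was 24622578 from Gm29216 to Gm28438 and 24622577 for Gm10222 and Gm28439, so the stretches ran in parallel with a single step of 1 base. The only other gene annotated within 20 kb was the processed pseudogene Tubb4b-ps2, with 0.08 and 0.05 TPM.

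**Figure D1:**
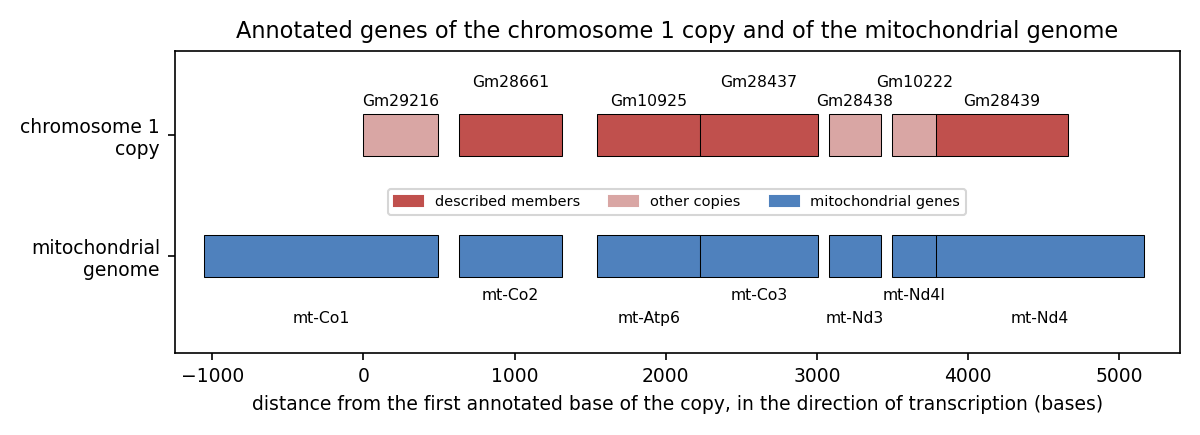
Annotated genes of the copy on chromosome 1 (upper row) and of the mitochondrial genome (lower row), placed on one axis of distance in bases from the first annotated base of Gm29216. The 7 copies stand in the order and spacing of their sources, and mt-Co1 and mt-Nd4 reach beyond the annotated copy at its ends.

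All 4 members were identical to their mitochondrial counterpart along their whole annotated length, with 0 mismatches in 681, 678, 783 and 876 aligned bases for Gm28661, Gm10925, Gm28437 and Gm28439. They differed from it only in where they stop. Their last 60 bases are shown beside the same stretch of the counterpart, because these few bases are all that sets the annotated transcripts of the first 3 pairs apart. Capitals mark the bases of the counterpart that lie past the end of the copy; for mt-Nd4 only the first 20 of 502 are shown. Chromosome 1 bases outside the annotated genes were not analysed here.
Gm28661, chr1:24614885-24614944, minus strand: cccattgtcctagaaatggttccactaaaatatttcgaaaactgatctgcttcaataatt
mt-Co2, chrM:7634-7696, plus strand: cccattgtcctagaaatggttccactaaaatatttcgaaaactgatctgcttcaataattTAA
Gm10925, chr1:24613974-24614033, minus strand: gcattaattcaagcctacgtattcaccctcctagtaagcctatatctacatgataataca
mt-Atp6, chrM:8545-8607, plus strand: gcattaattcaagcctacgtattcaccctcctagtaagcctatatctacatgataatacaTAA
Gm28437, chr1:24613189-24613248, minus strand: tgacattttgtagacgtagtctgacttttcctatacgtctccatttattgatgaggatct
mt-Co3, chrM:9330-9390, plus strand: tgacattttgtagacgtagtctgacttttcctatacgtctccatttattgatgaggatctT
Gm28439, chr1:24611535-24611594, minus strand: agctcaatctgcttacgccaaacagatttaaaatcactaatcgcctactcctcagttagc
mt-Nd4, chrM:10983-11062, plus strand: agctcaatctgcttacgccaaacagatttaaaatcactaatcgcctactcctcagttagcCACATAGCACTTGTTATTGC

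The 3 bases past the annotated ends of Gm28661 and Gm10925 are the stop codon TAA of mt-Co2 and mt-Atp6. The last of them for mt-Atp6, the A at chrM:8607, is also the first base of mt-Co3. By the sum of positions it falls on chr1:24613971, the first base of Gm28437, which is likewise A. Whether chromosome 1 carries the others was not analysed here. The base past the annotated end of Gm28437 is the final T of mt-Co3, a message whose stop codon is completed by its poly(A) tail. The copies covered 99.6%, 99.6%, 99.9% and 63.6% of mt-Co2, mt-Atp6, mt-Co3 and mt-Nd4. In words of 100 bases, a length chosen because length and effective length differ by 99 bases in the first set of tables, 100% of the words of each member also occurred in the mitochondrial transcripts. Of the counterparts' own 100-base words, 3 of 585 in mt-Co2, 3 of 582 in mt-Atp6 and 1 of 685 in mt-Co3 were absent from the copy, against 502 of 1279 in mt-Nd4. No stretch of a member was thus private to it, and only Gm28439 had a counterpart with a long private stretch. Across the annotation, 1686 of 32088 single-transcript genes of at least 100 bases (5.25%) likewise lay wholly inside a transcript of another gene.

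Read with the standard code, the members hold in-frame stops in every case. Each starts with ATG, and TGA occurs in frame 5 times in Gm28661, first at codon 65 of 227. It occurs 3 times in Gm10925, first at codon 48 of 226. Gm28437 holds 12, the first at codon 16 of 261, and Gm28439 holds 8, the first at codon 16 of 292. With the mitochondrial code the count of stops was 0 in each, which follows from their identity to the mitochondrial genes. The first such codon of Gm28661 and of Gm28437 is shown in capitals, with the bases on either side, to show how early the standard reading frame ends.
Gm28661, chr1:24615341-24615403, minus strand: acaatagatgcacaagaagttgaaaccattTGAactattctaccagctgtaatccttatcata
Gm28437, chr1:24613894-24613956, minus strand: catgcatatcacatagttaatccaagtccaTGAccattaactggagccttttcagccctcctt

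Of the 3 other pseudogenes on the stretch, Gm29216 and Gm28438 carried a base that tells them from their source. Positions are counted from 1 at the first base of the mitochondrial transcript, with its base first: A1066T in Gm29216 against mt-Co1, and T3C in Gm28438 against mt-Nd3. The first 9 bases of Gm29216 did not align to mt-Co1 at all. A1066T is base 13 of Gm29216, close to that unaligned end. Whether it is a substitution in the copy or part of that end cannot be told from this alignment. Gm10222 matched mt-Nd4l over all its 294 bases. The substituted base of Gm28438 stands in capitals beside the mitochondrial base, to show how small such a mark is.
Gm28438, chr1:24613075-24613119, minus strand: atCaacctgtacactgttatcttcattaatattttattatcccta
mt-Nd3, chrM:9459-9503, plus strand: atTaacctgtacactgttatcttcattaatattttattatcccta

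Each library was quantified by the authors in 2 ways. A gene table gives expected counts (estimated reads or fragments per gene, which need not be whole) and TPM (abundance per transcript length, scaled to the same total in every library); its column names are those RSEM writes, and it was derived from an alignment to the transcriptome. A second table, with the column names kallisto writes, gives estimated counts and TPM derived from the read files and an index. Total expected counts were 35769717 in animal 1 and 35135703 in animal 2, and estimated counts in the second table summed to 34601631 and 34894349. Markers of the adrenal cortex were at 1 TPM or more in both libraries for 8 of 8 genes, and those of the medulla for 6 of 6.

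Gm28661 stood among the 6 highest genes of either library in both tables. In the gene table its level was 13589 TPM for animal 1 and 15149 TPM for animal 2, a mean of 14369 ± 1104 (SD, n = 2), and ranked 6 of all genes in both. In the second table it had 27127 and 27325 TPM and ranked 3 in both. Its source mt-Co2 was far lower, with 326 and 133 TPM in the gene table and 1932 and 1101 TPM in the second. In all 4 values the pseudogene thus lay above the mitochondrial gene, by 41.7-fold and 114-fold in the gene table and by 14.0-fold and 24.8-fold in the second.

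Gm28437, the copy of the other oxidase subunit, was likewise above its source in each table. It had 7365 and 8019 TPM in the gene table (7692 ± 462, SD, n = 2), against 3193 and 2716 TPM for mt-Co3. In the second table it had 12279 and 12190 TPM, against 7254 and 6023. The excess was smaller than for Gm28661, at 2.31-fold and 2.95-fold in the gene table and 1.69-fold and 2.02-fold in the second.

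Gm10925, the copy of the ATP synthase subunit gene, was high in one table and low in the other. Its gene-table level was 9640 TPM for animal 1 and 11844 for animal 2 (10742 ± 1559, SD, n = 2), at ranks 9 and 8. In the second table it had 359 and 194 TPM, at ranks 289 and 556. mt-Atp6 moved the opposite way, from 6887 and 5985 TPM in the gene table to 25591 and 25166 TPM in the second. The pseudogene was 1.40-fold and 1.98-fold above its source in the gene table, and at 0.0140 and 0.00771 of it in the second. The ranges of the 2 tables did not overlap for either gene of the pair. The same held for each of the other members, and the share of all genes was not counted. Over 14977 genes the second table was higher by a median of 0.80 and 0.72 on the log2 scale.

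Gm28439, the copy of the first part of mt-Nd4, showed the reverse of Gm10925. It was listed at 0 expected counts in both libraries of the gene table, and at 774 and 447 TPM in the second table, at ranks 98 and 214. The 0 stands beside 206847 and 247376 counts for mt-Nd4, and 3 counts, the limit for counting error alone, would be 0.00145% and 0.00121% of the pair. That limit does not cover the assignment of reads: the same table's posterior means for Gm28439 were 8.73 and 12.9 counts. mt-Nd4 was above its copy in every value, with 4161 and 5450 TPM in the gene table and 7696 and 9292 TPM in the second. In the order of gene-table means Gm28661 came first, then Gm10925, Gm28437 and Gm28439, and the ranges of the 2 animals did not overlap between neighbours. The second table gave another order, Gm28661, Gm28437, Gm28439 and Gm10925, again with no overlap.

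**Figure D2:**
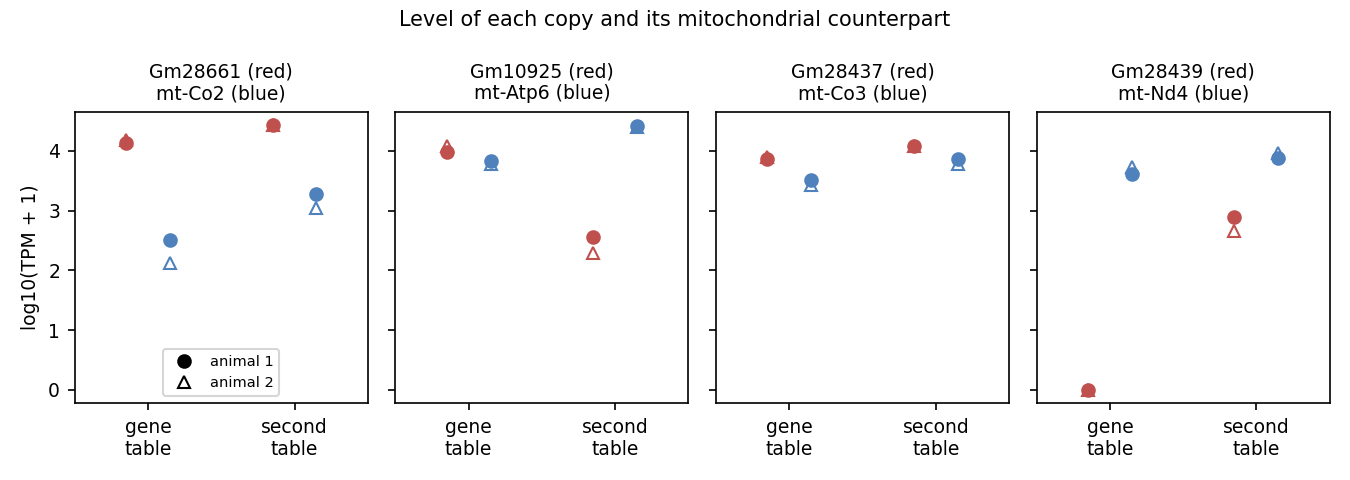
Level of each pseudogene (red) and its mitochondrial counterpart (blue) as log10(TPM + 1), by table; filled circles are animal 1 and open triangles animal 2. Gm28661 and Gm28437 lie above their counterparts in both tables, Gm10925 drops below mt-Atp6 in the second table, and Gm28439, listed at 0 in the gene table, lies below mt-Nd4 in both.

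Together the 4 members took 30593 and 35012 TPM in the gene table (32803 ± 3124, SD, n = 2), or 3.06% and 3.50% of all TPM. In the second table they took 40539 and 40156 TPM, or 4.05% and 4.02%. Their counts were 2.01% and 2.14% of all expected counts and 1.15% and 1.13% of the second table's. Over genes annotated to nuclear chromosomes alone, the members made up 3.64% and 4.25% of gene-table TPM and 5.80% and 5.75% of the second table's. The 13 mitochondrial mRNAs summed to 59035 and 66913 TPM in the gene table and 111859 and 113127 TPM in the second.

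The difference between the quantifications was taken in each library as log2((TPM + 1)/(TPM + 1)) of the second table over the gene table. Over 14977 genes with a mean TPM of at least 1 in either table its median was 0.80 in animal 1 and 0.72 in animal 2, so a gene with a value near these kept its place among the others. Gm28661 had 1.00 and 0.85, and Gm28437 had 0.74 and 0.60. Both lay close to the median of all genes, with 0.20 and 0.13 for Gm28661 and -0.06 and -0.12 for Gm28437 after it was subtracted. Gm10925 had -4.74 and -5.92, that is 26.8-fold and 61.0-fold lower in the second table. Gm28439 had 9.60 and 8.81, values that depend on the 1 TPM added, since the gene table lists it at 0. At 2-fold or more in both libraries, 1 of the 4 members was higher in the second table, where 16% of all genes were, and 1 was lower, where 2.76% were. After subtraction of the median the members called were Gm10925 and Gm28439, and 5.09% of all genes were called, 1.67% as higher and 3.43% as lower. Of the 202 such genes with 1 transcript that lie wholly inside a transcript of another gene, 69.3% were called, 3.47% as higher and 65.8% as lower. The members were chosen on this contrast, so nothing is read from their counts.

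Adding each copy to its counterpart brought the pair of Gm10925 near the median gene. The pair of Gm28439 was near it too, but mt-Nd4, which held most of that pair's counts in both tables, was already near it alone. Gm28661 and Gm28437 were near it with or without the addition of their counterparts. With counts of a pair added and expressed per length of the mitochondrial transcript, the second table exceeded the gene table by 0.26 and 0.17 on the log2 scale for Gm28661 with mt-Co2, after the median of all genes was subtracted, slightly further off than the 0.20 and 0.13 of Gm28661 alone. The values were 0.09 and 0.04 for Gm28437 with mt-Co3, against -0.06 and -0.12 for Gm28437 alone. On the same scale mt-Co2 alone stood at 1.77 and 2.32, and mt-Co3 alone at 0.39 and 0.43. For Gm28439 with mt-Nd4 the values were 0.16 and 0.08, against 8.80 and 8.08 for Gm28439 alone and 0.09 and 0.05 for mt-Nd4 alone. For Gm10925 with mt-Atp6 they were -0.14 and -0.21, against -5.54 and -6.65 for Gm10925 alone and 1.10 and 1.35 for mt-Atp6 alone. These 4 pairs lay between -0.21 and 0.26 of the median gene. Another pair of the stretch with an identical sequence, Gm10222 with mt-Nd4l, did not come near it and stood at -6.51 and -5.95 after the addition. Pair counts themselves also differed: those of Gm10925 with mt-Atp6 in the second table were 62.5% and 62.2% of the gene table's, against 82.9% and 81.1% for Gm28661 with mt-Co2, 80.5% and 80.9% for Gm28437 with mt-Co3 and 104.6% and 102.2% for Gm28439 with mt-Nd4.

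The tables differed in how they shared a pair's counts. Of the counts of Gm28661 and mt-Co2, 97.6% and 99.1% went to the pseudogene in the gene table and 93.3% and 96.1% in the second. Of those of Gm28437 and mt-Co3, the pseudogene received 69.7% and 74.7% in the gene table and 62.8% and 66.9% in the second. For Gm10925 and mt-Atp6 the share was 58.2% (Wilson 95% interval 58.0 to 58.4) and 66.3% (66.2 to 66.5) in the gene table, and 1.37% (1.33 to 1.42) and 0.759% (0.724 to 0.796) in the second. For Gm28439 and mt-Nd4 it was 0 in the gene table and 4.99% and 2.46% in the second. These intervals cover counting error only, for reads taken as assigned, and are narrow beside the gap between the tables. Within a table the share of Gm28661, Gm28437 and, in the gene table, Gm10925 was higher in animal 2, whereas in the second table that of Gm10925 and Gm28439 was higher in animal 1.

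**Figure D3:**
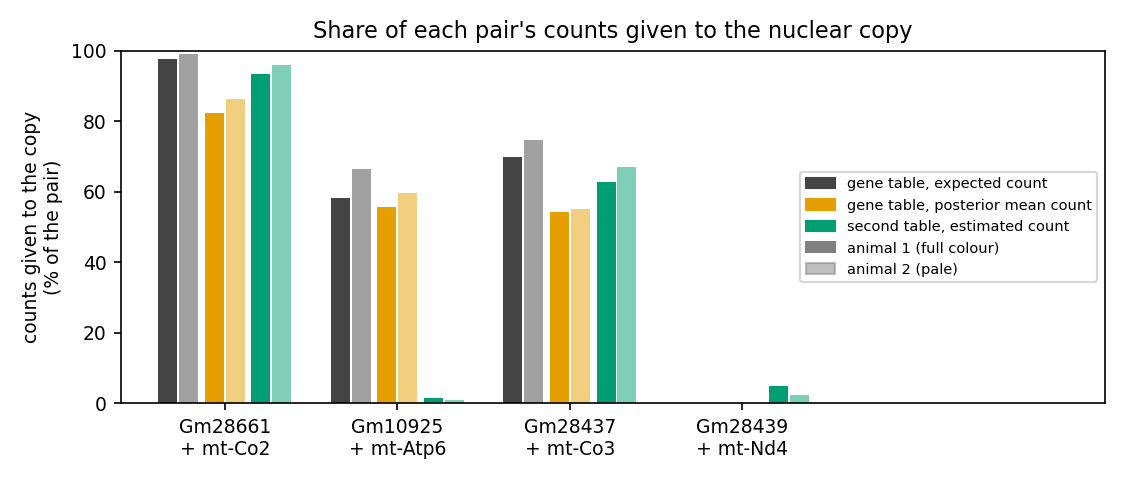
Share of the counts of each pair given to the pseudogene, in percent, for 3 deposited estimates and both animals. The share of Gm10925 falls from between 55.6% and 66.3% in the gene table to 1.37% and 0.759% in the second table, while that of Gm28661 is at least 82.3% in all.

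The gene table also holds a posterior mean and SD of each count, a second estimate from the same alignment. By the posterior mean, the pseudogene's share was 82.3% and 86.3% for Gm28661, 54.2% and 55.1% for Gm28437 and 55.6% and 59.5% for Gm10925. It was 0.00422% and 0.00521% for Gm28439, from 8.73 and 12.9 counts. The total of Gm28661 with mt-Co2 fell by 0.46 and 0.11 counts between the estimates, and that of the other 3 pairs by 0, so only the split moved. The expected count of Gm28661 lay 6.83 and 6.12 posterior SDs above its posterior mean, that of Gm28437 6.83 and 6.79 SDs, and that of Gm10925 1.25 and 4.12 SDs. The posterior SD of a copy and that of its counterpart were nearly equal, with 7071 counts for both Gm28661 and mt-Co2 in animal 1, and 7722.5 for both Gm10925 and mt-Atp6. These SDs were 12.6 to 19.8 times the square root of the posterior mean for Gm28661, Gm10925 and Gm28437. The same ratio was 2.92 and 3.50 for Gm28439. Among the other copies it was 1.61 and 1.60 for Gm29216, 4.77 and 6.83 for Gm28438 and 14.14 and 10.99 for Gm10222. The values of Gm28439 and Gm28438 rest on few counts, with posterior means of 26.7 and 45.8 for Gm28438. Whether the ratio follows identity to the source was not tested.

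The deposited interval around each TPM, which comes with no stated level, belongs to the posterior estimate. Gm28661 was printed at 13589 TPM in animal 1 with an interval from 10650 to 11807, and at 15149 TPM in animal 2 with an interval from 12366 to 13526. For Gm28437 the intervals ran from 5191 to 6024 and from 5207 to 6396, below the printed 7365 and 8019. Those of Gm10925 ran from 8301 to 9591 and from 9963 to 10886, again below the printed 9640 and 11844, although by little in animal 1. The printed value lay outside its own interval in both libraries for all 3 of these members, where 2.19% of the 13569 genes averaging 50 expected counts or more did so. Gm28439 did not reach that count; its printed 0 lay under intervals that end at 0.914 and 1.41 TPM. On the other side, the printed values of mt-Co2 and mt-Co3 lay below their intervals in both animals, while that of mt-Atp6 did so only in animal 2. Gm29216, mt-Co1, mt-Nd3 and mt-Nd4 were also printed above their intervals in both animals, so this trait is not particular to the members. In animal 1 mt-Nd4 was printed at 4161 TPM with an interval from 4070 to 4106. Its expected count of 206847 there was close to its posterior mean of 206838.

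**Figure D4:**
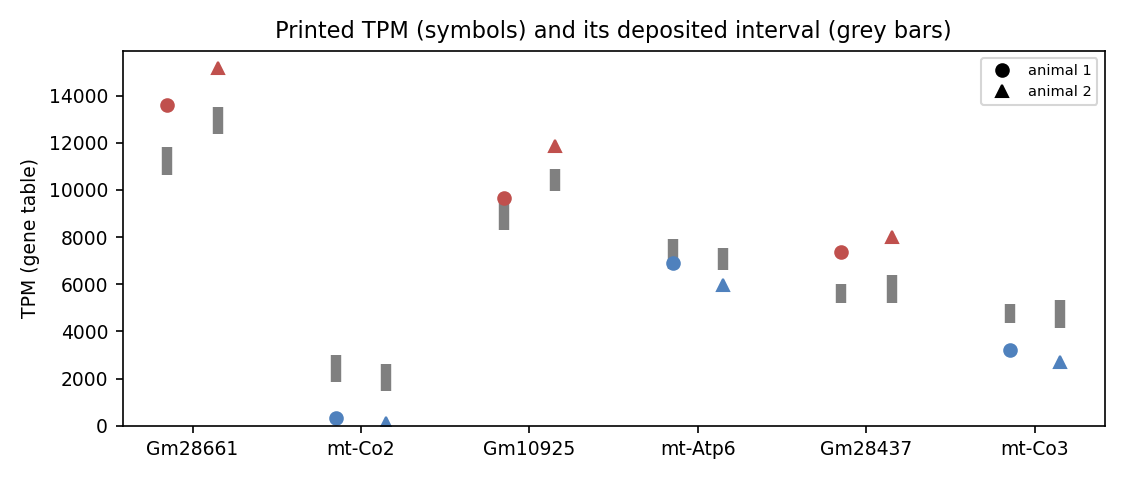
Printed TPM of the gene table (circles, animal 1; triangles, animal 2; red, pseudogenes; blue, mitochondrial genes) and the deposited interval of each (grey bars), on a linear axis from 0. The 6 printed values of Gm28661, Gm10925 and Gm28437 lie above their bars, and those of mt-Co2 and mt-Co3 lie below.

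The 2 animals differed little in the members' gene-table counts. After TMM scaling, the log2 ratio of animal 2 over animal 1 was 0.11 for Gm28661, from 307402 and 312918 expected counts. It was 0.08 for Gm28437, from 195814 and 194658 counts, and 0.25 for Gm10925, from 216948 and 243378. None of these 3 was 2-fold apart with intervals that do not overlap, a rule met by 3.47% of 13569 genes. The intervals alone were apart for Gm28661 and Gm10925, as for 33.1% of all genes. No ratio is given for Gm28439 in the gene table, where both counts are 0. Scaling by spike-in totals moved the median of all genes from -0.01 to 0.21, and the members with it, to 0.33, 0.30 and 0.47 for Gm28661, Gm28437 and Gm10925.

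The second table gave Gm10925 the opposite direction, with 3199 and 1734 estimated counts and a ratio of -0.84. A change of sign between the tables occurred in 6.04% of 13202 genes. Gm28439 fell by 0.75 on the log2 scale there, from 10790 to 6218 counts, while Gm28661 and Gm28437 stayed at 0.06 and 0.03. Among the counterparts mt-Co2 stood out, with 7413 and 2752 expected counts and a ratio of -1.35 in the gene table. Its deposited intervals overlapped, so it did not meet the rule for genes apart between animals. Its posterior mean counts were 55685 and 43156, and its ratio in the second table was -0.77. Once a copy and its source were added, the gene-table ratios were 0.09 for Gm28661 with mt-Co2, -0.02 for Gm28437 with mt-Co3, 0.06 for Gm10925 with mt-Atp6 and 0.34 for Gm28439 with mt-Nd4. The second table gave 0.01, -0.06, 0.01 and 0.27 for the same pairs, so each pair kept 1 sign in both tables. Marker sums differed between the libraries for striated muscle, with 135 TPM in animal 1 and 0.34 in animal 2, where Ckm and Myh4 were at 0, and for adipocytes, with 2212 and 1185 TPM. Those of liver were 13.46 and 4.54 TPM, of the cortex 15869 and 20272, of the medulla 1807 and 1526 and of kidney 0.93 and 0.90. The part of these differences in the members' ratios was not tested. In bulk tissue fewer cells of a type and less RNA per cell cannot be told apart.

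The order of the mitochondrial messages depended on whether the copies were counted with them. Taken alone, mt-Co2 ranked last of the 13 mitochondrial mRNAs in the gene table in both animals, below mt-Nd6. With Gm28661 added it had 13845 and 15204 TPM and ranked second. In the second table it moved from rank 10 to the top, with 28830 and 28200 TPM. mt-Co3 ranked 10 and 11 in the gene table and 8 in the second, and 4 in all of them once Gm28437 was added. mt-Atp6 with Gm10925 ranked first in the gene table, with 16477 and 17768 TPM, and next to the top in the second, with 25948 and 25359 TPM. With the copies added, the same 4 genes, mt-Atp6, mt-Co2, mt-Co1 and mt-Co3, led the list in both tables and both animals, and mt-Co1 was the third in each.

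**Figure D5:**
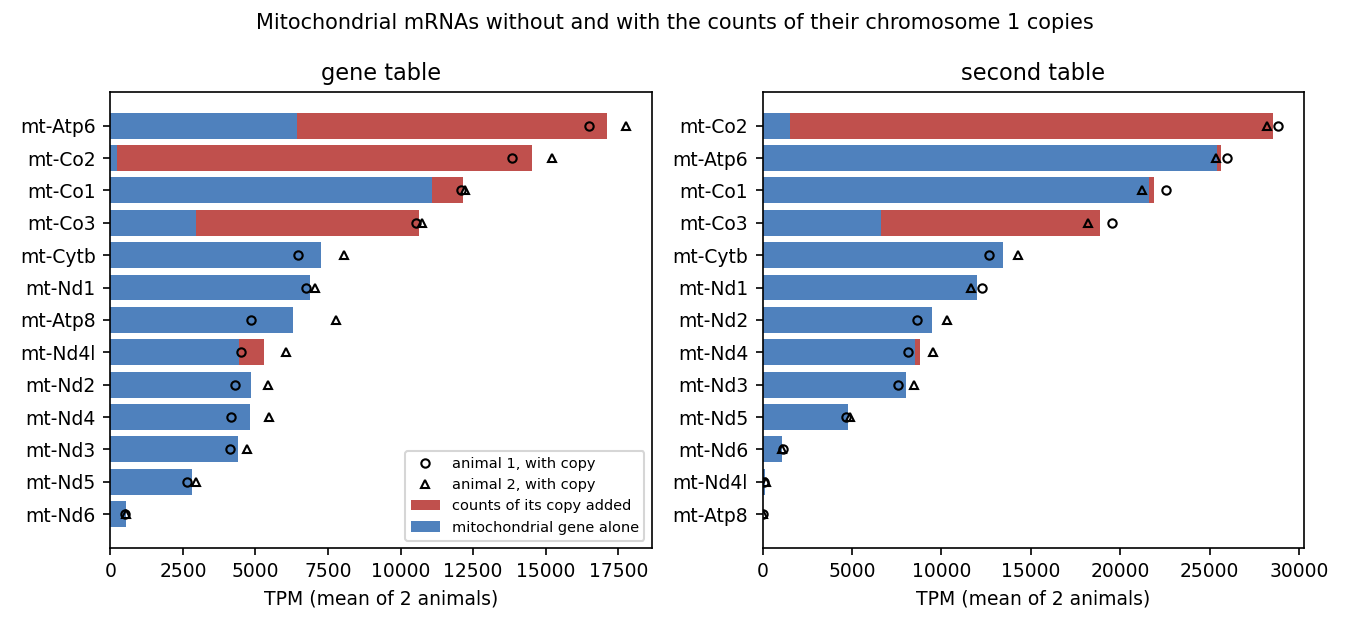
TPM of the 13 mitochondrial mRNAs (mean of 2 animals, linear axis), alone (blue) and with the counts of the chromosome 1 copy added (red, full bar length); symbols give each animal's value with the copy. Genes with no red part have no copy with counts in that table, and the bars of mt-Co2 and mt-Co3 are mostly red in both tables.

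Of the 9 mitochondrial mRNAs with no member among their copies, the median log2 ratio of the second table over the first, less the median of all genes, was 0.10, and 7 of the 9 were above 0. Those that fell 2-fold or more numbered 2, mt-Atp8 and mt-Nd4l, and 0 rose. mt-Atp8 had 4830 and 7761 TPM in the gene table and 0 in both libraries of the second. mt-Nd4l had 3929 and 4963 TPM in the gene table and 86.0 and 162 in the second, and its copy Gm10222 fell from 584 and 1116 TPM to 0. Gm28438, which carries T3C, was listed at 0 expected counts in the gene table, while Gm29216 had 4065 and 3729 TPM there and 1294 and 2947 TPM in the second table.

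Other copies of mitochondrial DNA were scarcely detected. Searching annotated pseudogenes for matches to the 37 mitochondrial transcripts over at least 80% of their length and at 80% identity or more found 27, of which 7 were on this stretch and 20 elsewhere. The 20 ranged in identity from 80.7% to 97.6%, and 15 of them had an expected count of 0 in both libraries. Together they had 8.66 and 9.23 TPM in the gene table, where the 4 members had 30593 and 35012. The highest there was Gm13341 on chromosome 2, a copy of mt-Co2 at 95.9% identity with 5.35 and 6.74 TPM. Next came Gm13340, a copy of mt-Co1 at 97.6% identity with 3.14 and 2.36 TPM. Their order was reversed in the second table, with 16.1 and 11.6 TPM for Gm13340 and 6.05 and 6.06 TPM for Gm13341. Both copies were named after their values were seen. In the second table the 20 summed to 29.6 and 25.9 TPM.

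The genes whose pattern over the 4 values was most like a member's were found by the Euclidean distance of centred log2(TPM + 1), among 8421 genes with a mean of at least 10 TPM in either table. Gm28661 was nearest to Sumo2, Slc39a14 and Zbtb20, at distances of 0.00494 to 0.0168. Gm28437 was nearest to Polr2d, Fam102a and Acbd6, at 0.00883 to 0.0119. All 6 are protein-coding, and none was flagged as lying wholly inside another gene's transcript. That search covered only genes with 1 annotated transcript of at least 100 bases, so genes with several transcripts could not be flagged. It flagged 202 of the 14977 genes compared between the tables, and nothing is read from this. The nearest to Gm10925 were the processed pseudogenes Gm10705, Gm8186 and Mpc1-ps, at 0.565 to 0.679, of which Gm8186 also lies wholly inside another gene's transcript. Gm8186 had 39.7 and 49.4 TPM in the gene table and 0 in the second. Gm28439 had no close match, with Gm47283, Hist2h2aa1 and Gm22567 at 2.53 to 2.77.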

How the data were processed

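Per the deposited description and the file headers, the authors derived the gene tables from a transcriptome alignment and the second, transcript tables from a pair of read files, with mm10 and GENCODE M21; program names and versions are not stated there. Beside these, the authors deposited expected counts (estimated counts in the second table) and TPM per library, with posterior means and interval bounds. FPKM values deposited by the authors were not used. Per the labels' protocols the library kit was directional.

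Second-table values were summed by gene. All 55536 gene identifiers were found in the annotation (GRCm38) and 55450 in the second table. The gene table also lists 96 spike-ins and 26248 numbered entries, which hold 1.05e-05% and 1.14e-05% of the counts and were left out. Expected counts were rounded, scaled with TMM (edgeR 4.0.16, R 4.3.3) over genes averaging 10 counts or more, and compared with 0.5 added. Genes 2-fold apart between animals needed a mean count of at least 50 and deposited intervals that do not overlap. With 1 library per animal no p-value was computed; an exact sign-flip test over 2 libraries cannot go below 0.5. For counting error alone a count of 0 allows 3 counts, or 0.0839 and 0.0854 CPM; this limit does not cover how reads shared by several genes were assigned. The ratio rule was tested on simulated data.

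No genome was used. Counterparts, words and other copies were found in the annotated transcript sequences (GENCODE M21; blastn 2.17.0), in place of the planned search of the mitochondrial chromosome. The planned word length of 31 and other lengths gave the same share. The genes named are the members, genes within 20 kb, the mitochondrial counterparts, the 3 genes nearest in pattern to each member and tissue markers. The members and lists were chosen with earlier results of these data known. Alternatives were DESeq2 1.42.0 size factors, spike-in totals, other added constants and filters, the second table, and leaving out each library.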

Additional observations from a re-analysis of the deposited data

How the results depend on the processing

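Counting intervals of the members' shares were narrow at this depth, but they do not cover how identical reads were assigned. No paired analysis between groups was possible because the series holds 1 group. The quantifications were compared within each of the 2 libraries. The summed level of the 4 members, 32803 TPM, was 40348 in the second quantification, 39438 over nuclear genes only and 27556 by posterior mean TPM, and 30593 to 35012 with either library left out. Posterior means, subtraction of the median and adding the counterpart were chosen as alternatives after seeing the data. The log2 ratio of the second over the first quantification kept its direction for Gm10925 (-5.92 to -4.74 with a library left out) and Gm28439 (8.81 to 9.60) under every alternative tried. With CPM in place of TPM it turned to -0.31 for Gm28661 and -0.43 for Gm28437, and with the median over genes subtracted to -0.090 for Gm28437. TPM divides counts by the effective length, which CPM does not. In animal 1 that length was 582 bases in the gene table and 353 in the second for Gm28661, and 684 and 455 for Gm28437. The log2 ratio of copy over counterpart was 6.11 for Gm28661, 4.22 in the second quantification and 2.45 by posterior mean; for Gm10925 it was 0.73 and turned to -6.59 in the second; for Gm28437 it was 1.38, with 0.89 and 0.27. With a library left out it ran from 5.38 to 6.84, 0.49 to 0.98 and 1.21 to 1.56. The log2 ratio between animals turned to -0.84 for Gm10925 in the second quantification and to -0.024 for Gm28437 once its counterpart was added. The count of genes 2-fold apart between quantifications was 2808, and 763 with the median subtracted; that between animals was 471, and 734 with a minimum mean of 10. The causes were not tested. The fold of Gm28439 between quantifications grew with a smaller constant added, since it is listed at 0.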
